A study of Mus musculus with 18 samples.

Results

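Vasoconstrictor and cyclic GMP signalling genes were followed in the mouse carotid artery after wire injury. The set held 10 genes, taken by symbol out of the 35655 genes of the count table: Gucy1a1, Gucy1b1, Prkg1, Pde5a, Pde3a, Ednra, Ednrb, Agtr1a, Rgs4 and Rgs5. All libraries came from WT mice of the strain C57/BL6 on chow, which were male and 11 weeks old when the wire was passed through the left carotid artery. Per the study, vessel wall with neointima was cut from frozen sections by laser, with up to 70 sections per library. The RNA was sequenced from its 3′ ends (nanoMACE-seq). The study calls the samples pooled neointima, day 0 among them, and does not describe separately what was cut from the uninjured vessels of day 0. The 18 libraries fell into day 0, labelled pre-injury (4), and days 7 (4), 14 (3), 21 (4) and 28 (3) after injury. The libraries held 440675 to 878310 counts, so that 1 count stood for about 1 to 2 CPM, the counts scaled to a common library total that give all levels below. In the study the right carotid was the control vessel, but whether the day 0 libraries came from it is not given in the sources used here. Each library of a day carries a mouse number of its own, and 3 day 0 libraries share theirs with a day 21 library.

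Arterial smooth muscle tone is set by opposing signals. Endothelin-1 and angiotensin II act on receptors that couple to Gq, which releases calcium through phospholipase C and raises contraction, and RGS proteins end this signal by speeding GTP hydrolysis on the Gα subunit. Nitric oxide acts against it: it binds soluble guanylate cyclase, the cyclic GMP that is made activates protein kinase G, and phosphodiesterases break the cyclic nucleotide down. Contractile smooth muscle cells of the artery wall are known for high levels of many of these parts, and pericytes, the mural cells of small vessels, are known for Rgs5.

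The tissue label was checked against marker genes before the members were read. Summed smooth muscle markers (18 genes, among them Acta2, Myh11 and Tagln) were 49400 to 54720 CPM at day 0, 2897 to 10250 at day 7, 11680 to 34370 at day 14, 13100 to 30940 at day 21 and 32880 to 41420 at day 28. All 16 of the tested smooth muscle markers were lower at day 7 than at day 0, 9 at day 14, 10 at day 21 and 1 at day 28. Summed macrophage markers (12 genes) moved the other way, from 113.6 to 521.1 CPM at day 0 to 4302 to 6498 at day 7, and were 769.8 to 1131 at day 28. In such bulk libraries, fewer cells of a type and less RNA per cell cannot be told apart. A pair of libraries differed from the others of their day, day 7 replicate 4 with 10250 CPM of smooth muscle markers and day 14 replicate 1 with 34370.

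**Figure D1:**
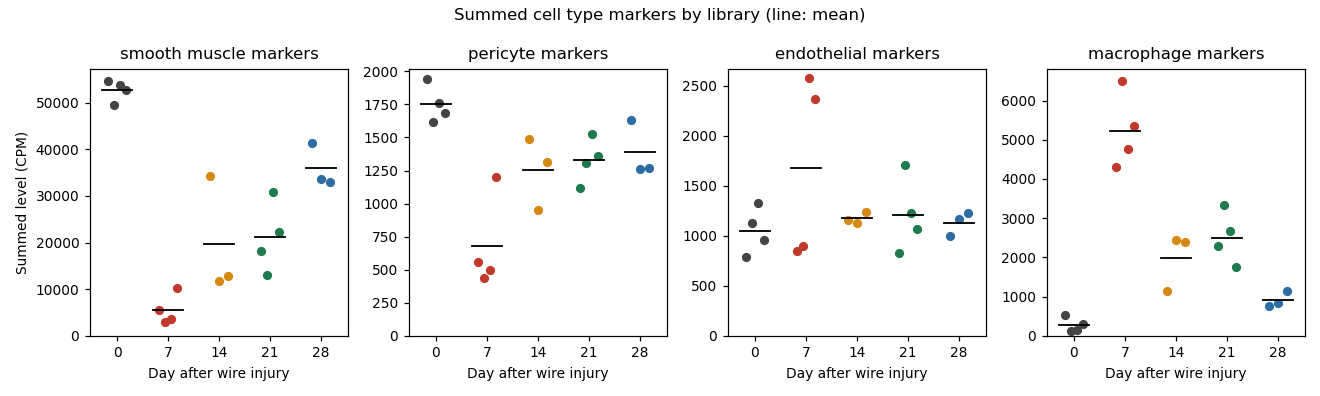
Summed levels (CPM, linear axis) of smooth muscle, pericyte, endothelial and macrophage markers by day after wire injury; each point is 1 library and each line the mean of a day. Smooth muscle markers were lowest at day 7, at 2897 to 10250 CPM, where macrophage markers were highest, at 4302 to 6498 CPM.

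Of the 10 members, 8 passed the filter on low counts and entered the fit over 10312 genes, while Ednrb and Agtr1a did not. At day 7 against day 0, 5 of the 8 were called lower (edgeR's quasi-likelihood test, adjusted p under 0.05) and none higher: Gucy1a1, Gucy1b1, Pde5a, Pde3a and Rgs4. Over all genes tested, 8.53% were called lower and 11.3% higher in this contrast. The median log2 fold change was -1.94 over the 8 members and 0.07 over all genes tested. Against day 0, 2 members were called lower at day 14 (Gucy1b1 and Pde5a) and 1 higher (Rgs5), where 1.42% of all genes were called lower and 4.80% higher. At day 21, 1 was lower (Gucy1b1) and 1 higher (Rgs5), where 2.93% of all genes were lower and 5.92% higher. At day 28 no member was called by edgeR or by DESeq2, 1 had an unadjusted p under 0.05, and 1.34% of all genes were called. These 4 comparisons share the day 0 libraries.

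**Figure D2:**
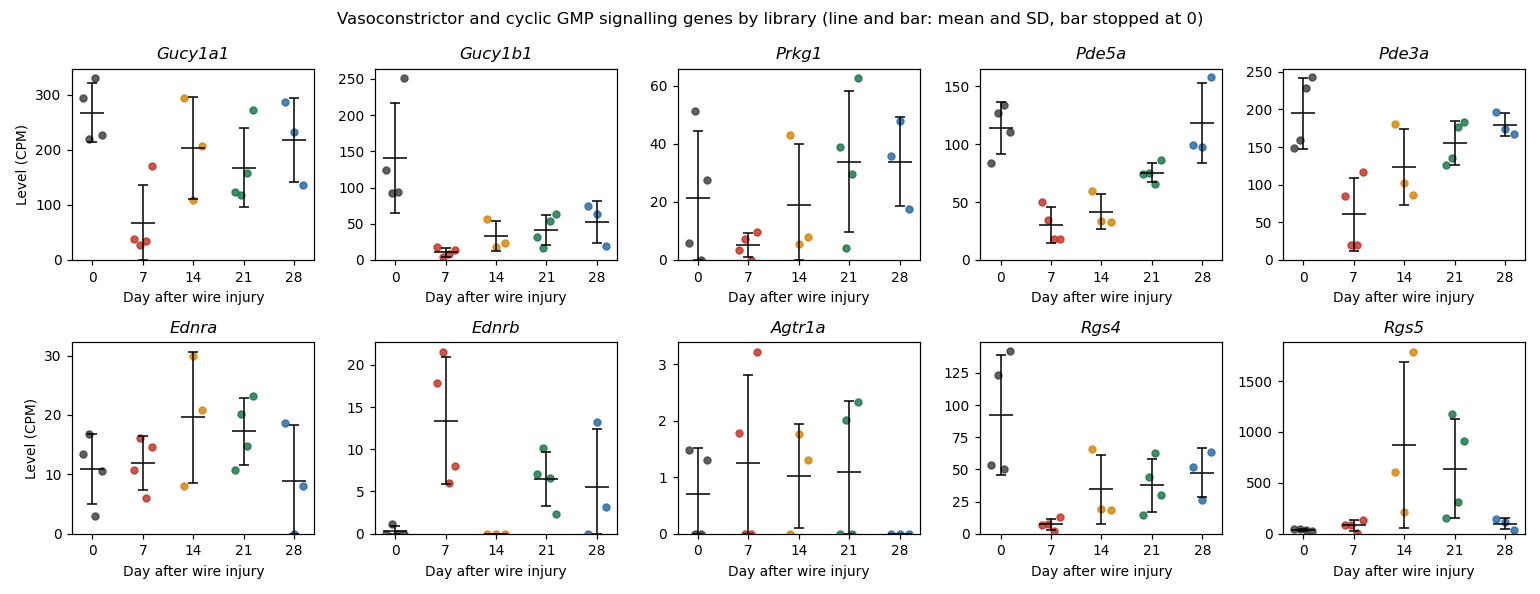
Levels (CPM, linear axes from 0, 1 scale per gene) of the 10 members by day after wire injury; points are libraries, horizontal lines are the means of a day and bars show 1 SD, stopped at 0. Gucy1b1, Pde5a and Rgs4 lay lower in all day 7 libraries than in all day 0 libraries, while Rgs5 reached 1790 CPM at day 14.

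Gucy1a1 and Gucy1b1 encode the α1 and β1 subunits of soluble guanylate cyclase, which works as a heterodimer and is the receptor for nitric oxide. Both genes lie on the minus strand of chromosome 3 in GRCm39, Gucy1a1 at chr3:81999733-82053216 and Gucy1b1 at chr3:81939312-81982022, with 17710 bases and no protein-coding gene between them. A microRNA gene, Mir7010, overlaps an exon of Gucy1a1 on the same strand. Their promoters are shown because the subunits are neighbours that were read out as separate transcripts. Each line gives the 250 bases before the RefSeq start (the first of 2 listed for Gucy1a1; table build GRCm38.p6), found by exact match at chr3:82052958-82053207 and chr3:81982019-81982268 of GRCm39, minus strand. The Gucy1a1 window lies wholly inside the gene span given above, downstream of its 5′ end. That of Gucy1b1 reaches into the span with its last bases. Capitals mark GC boxes (GGGCGG) and CCAAT boxes (CCAAT), both read on either strand.
Gucy1a1: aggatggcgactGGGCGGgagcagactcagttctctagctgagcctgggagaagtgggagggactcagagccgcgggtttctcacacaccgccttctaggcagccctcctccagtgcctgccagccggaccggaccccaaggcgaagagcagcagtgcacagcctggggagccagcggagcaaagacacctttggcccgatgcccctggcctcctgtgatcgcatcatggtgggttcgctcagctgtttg
Gucy1b1: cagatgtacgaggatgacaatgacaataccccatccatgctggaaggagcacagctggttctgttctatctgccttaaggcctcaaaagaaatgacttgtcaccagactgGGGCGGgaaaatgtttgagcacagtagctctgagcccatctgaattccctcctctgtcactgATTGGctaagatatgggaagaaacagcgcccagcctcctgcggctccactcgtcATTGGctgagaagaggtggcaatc
Of 32851 promoters with the same 250 bases, 32.7% held a GC box and 33.8% a CCAAT box. Both subunits held 1 GC box, and Gucy1b1 also held 2 CCAAT boxes, read as ATTGG on this strand.

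Gucy1a1 stood at 293, 219, 331 and 227 CPM in the 4 day 0 libraries and at 37.4, 26.95, 33.9 and 171 CPM in the 4 day 7 libraries. All day 7 libraries lay below all day 0 libraries, which held for 9.71% of the genes tested, but replicate 4 lay far above the other three. Gucy1a1 fell 3.92-fold from day 0 to day 7 (log2 -1.97, SE 0.45, edgeR adjusted p = 0.00239, n = 4 and 4), and by 3.03 on the log2 scale without day 7 replicate 4. At day 14 the level was 294, 109 and 207.5 CPM, at day 21 it was 123, 117, 158 and 272 CPM, and at day 28 it was 287, 232 and 136 CPM. These libraries overlapped with day 0, and no later day was called against it. At day 28 Gucy1a1 was higher than at day 7 (log2 1.68, SE 0.47, edgeR adjusted p = 0.0179), a call lost without day 7 replicate 1 (adjusted p = 0.0564), 2 (0.0589) or 3 (0.0533) or without day 28 replicate 1 (0.0600) or 2 (0.0518). Without day 7 replicate 4, day 14 (log2 2.64, adjusted p = 0.000406) and day 21 (log2 2.35, adjusted p = 0.000357) were called above day 7 as well, against 1.58 (0.0974) and 1.29 (0.0867) with it, and DESeq2 called both with all libraries.

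Gucy1b1 was called lower than at day 0 on days 7, 14 and 21. It stood at 124, 92.0, 93.9 and 252 CPM at day 0 and at 17.8, 3.59, 7.97 and 12.9 CPM at day 7, which were 2 to 10 counts per library. No library of day 7 reached the range of day 0, and the fall was 13.0-fold (log2 -3.70, SE 0.56, 95% interval -4.85 to -2.55, edgeR adjusted p = 3.15e-05). Unlike the other members called at day 7, Gucy1b1 lay below every day 0 library on all 4 later days. The levels were 56.0, 17.6 and 23.5 CPM at day 14, 31.9, 16.1, 54.3 and 62.8 CPM at day 21 and 74.7, 62.8 and 19.2 CPM at day 28. A group wholly below day 0 was found for 6.79% of the genes tested at day 14, 6.81% at day 21 and 5.07% at day 28. Gucy1b1 was called lower at day 14 (log2 -2.11, SE 0.55, edgeR adjusted p = 0.0183) and at day 21 (log2 -1.77, SE 0.49, adjusted p = 0.0221), but not at day 28 (log2 -1.42, SE 0.52, adjusted p = 0.185). The day 14 call was lost without day 0 replicate 4 (log2 -1.68, adjusted p = 0.0885), day 14 replicate 2 (-1.84, 0.141) or day 14 replicate 3 (-1.93, 0.102). The day 21 call was lost without day 0 replicate 4 (log2 -1.33, adjusted p = 0.118), day 21 replicate 1 (-1.66, 0.0748) or day 21 replicate 2 (-1.54, 0.0725).

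From day 7, Gucy1b1 rose to day 21 (log2 1.92, SE 0.57, edgeR adjusted p = 0.0378) and to day 28 (log2 2.28, SE 0.59, adjusted p = 0.0102). The first call was lost in 6 of the 18 fits that left out 1 library, with adjusted p from 0.0521 without day 7 replicate 4 to 0.117 without day 7 replicate 2. The others were day 7 replicate 3 and day 21 replicates 1, 3 and 4. With the mouse number as a block in limma both calls were lost (adjusted p = 0.202 and 0.0810). The ratio of both subunits within a library asks whether they moved alike. The mean log2 ratio of Gucy1a1 to Gucy1b1 was 1.02 ± 0.82 (SD, n = 4) at day 0, 2.07 ± 1.04 at day 7, 2.58 ± 0.35 at day 14 (n = 3), 2.01 ± 0.48 at day 21 and 2.12 ± 0.45 at day 28 (n = 3). The difference from day 0 was 1.05 at day 7 (two-sided exact permutation test, p = 0.200) and 1.56, 0.99 and 1.102 at days 14, 21 and 28 (exact p = 0.0571 each, adjusted p = 0.0979 over 12 ratio comparisons). A change in the subunit ratio was thus not shown at this n, where the smallest p the exact test allows is 0.0286.

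**Figure D3:**
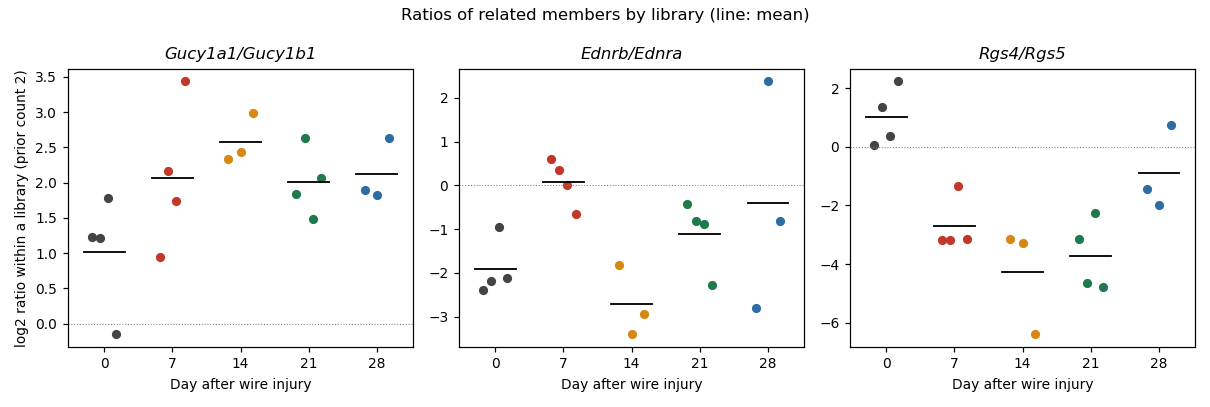
Log2 ratio of related members within each library (linear axis of log2 values, prior count 2), for Gucy1a1 to Gucy1b1, Ednrb to Ednra and Rgs4 to Rgs5, by day; points are libraries and lines the mean of a day. The Rgs4 to Rgs5 ratio was above 0 in all 4 day 0 libraries and below -1 in all libraries of days 7, 14 and 21.

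Prkg1 encodes protein kinase G type I, the main target of cyclic GMP in smooth muscle, and spans chr19:30541889-31742479 on the minus strand. Its levels were low and uneven within a day. They were 5.96, 51.4, 0 and 27.6 CPM at day 0, 3.56, 7.19, 0 and 9.69 CPM at day 7, 43.2, 5.29 and 7.83 CPM at day 14, 39.0, 4.04, 29.6 and 62.8 CPM at day 21 and 35.9, 48.0 and 17.6 CPM at day 28. A day 0 library and a day 7 library held no count. The difference at day 7 was -2.00 on the log2 scale (SE 0.98, 95% interval -4.02 to 0.02, edgeR adjusted p = 0.173), and the intervals of the other days against day 0 spanned 0 as well. All day 28 libraries lay above all day 7 libraries (log2 2.65, SE 1.02, adjusted p = 0.0863), a difference that was called without day 0 replicate 3 (adjusted p = 0.0499) and by DESeq2 (0.0469).

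Pde5a and Pde3a encode phosphodiesterases. PDE5 is specific for cyclic GMP and is the target of sildenafil, and PDE3A breaks down cyclic AMP and is inhibited by cyclic GMP. Pde5a lies at chr3:122522594-122653023 on the plus strand, where exons of 4930447N08Rik and 4933405D12Rik overlap it on the other strand, and Pde3a lies at chr6:141194888-141453174 on the plus strand, overlapped by Gm28523 on the other strand. The use of strand in the counting is not given in the sources used here, so these overlaps remain in the values.

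Pde5a was low on days 7 and 14. It stood at 83.4, 127, 134 and 110 CPM at day 0 and at 49.9, 34.1, 17.9 and 17.8 CPM at day 7. All day 7 libraries lay below day 0, and Pde5a fell 3.78-fold (log2 -1.92, SE 0.34, edgeR adjusted p = 0.000235). At day 14 it was at 59.2, 33.5 and 32.6 CPM, still wholly below day 0 (log2 -1.44, SE 0.37, adjusted p = 0.0155), a call lost without day 14 replicate 2 (adjusted p = 0.124) or 3 (0.101). At day 21 it was at 74.5, 74.7, 65.8 and 86.1 CPM, with 1 library inside the range of day 0, and at day 28 at 99.1, 97.6 and 158 CPM. The mean of day 28 was within 5 CPM of that of day 0 (118 ± 34.6 against 114 ± 22.5 CPM, SD, n = 3 and 4, 95% interval of the log2 difference -0.64 to 0.75). Against day 7, Pde5a rose to day 21 (log2 1.32, SE 0.35, adjusted p = 0.0183, lost without day 7 replicate 3, 0.0680, or 4, 0.0539) and to day 28 (log2 1.97, SE 0.36, adjusted p = 0.000631). No day 28 library lay below a day 14 library (log2 1.499, SE 0.38, adjusted p = 0.0667), and this difference was called by DESeq2 (0.0133) and without day 7 replicate 1 (0.0475) or 4 (0.0448), day 14 replicate 1 (0.0361) or day 28 replicate 1 (0.0361).

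Pde3a stood at 149, 159, 228 and 243 CPM at day 0 and at 85.5, 19.8, 19.9 and 116 CPM at day 7. The day 7 libraries were all below day 0 and split into a low pair (replicates 2 and 3) and a high pair (replicates 1 and 4). Pde3a fell 3.19-fold (log2 -1.67, SE 0.40, edgeR adjusted p = 0.00356). It was at 181, 102 and 86.1 CPM at day 14, 127, 135, 176 and 184 CPM at day 21 and 197, 174 and 168 CPM at day 28, all of which overlapped with day 0. Against day 7, it rose to day 21 (log2 1.34, SE 0.40, adjusted p = 0.0404) and to day 28 (log2 1.55, SE 0.42, adjusted p = 0.0145). The day 21 call was lost without day 7 replicate 2 (0.128) or 3 (0.124) or day 21 replicate 1 (0.0561), 3 (0.0909) or 4 (0.0964). Without day 7 replicate 4, Pde3a was also called higher at day 14 than at day 7 (log2 1.54, adjusted p = 0.0447), against 1.01 (0.348) with it.

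Ednra and Ednrb encode the endothelin receptors. The A type is the constrictor receptor of smooth muscle, and the B type is known best from endothelium, where it releases nitric oxide and clears endothelin. Ednra (chr8:78386590-78451552, minus strand, overlapped by 4933431K23Rik and Gm45714 on the other strand) was low throughout, with 0 to 17 counts per library. It stood at 13.4, 16.7, 2.98 and 10.5 CPM at day 0, 10.7, 16.2, 5.98 and 14.5 CPM at day 7, 7.998, 30.0 and 20.9 CPM at day 14, 10.7, 20.2, 14.8 and 23.3 CPM at day 21 and 18.7, 0 and 7.99 CPM at day 28. The days overlapped, and in none of the 10 contrasts was Ednra called by edgeR, with a lowest unadjusted p of 0.231, or by DESeq2. At day 7 the log2 difference from day 0 was 0.12, with a 95% interval of -1.496 to 1.73, so that neither a fall nor a rise of about 3-fold was outside what this depth allows.

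Ednrb (chr14:104052053-104081900, minus strand) was nearly without counts before injury. The 4 day 0 libraries held 0, 1, 0 and 0 counts, the 4 day 7 libraries 10, 12, 3 and 5, the 3 day 14 libraries none, the 4 day 21 libraries 6, 5, 4 and 1, and the 3 day 28 libraries 0, 8 and 2. All day 7 libraries lay above all day 0 libraries. The share of all genes with this pattern is not given here for day 7, and it was 10.7% at day 14 and 9.31% at day 21. Over the groups, 30 counts at day 7 stood against 1 at day 0, a ratio of rates of 39.4 with an interval from counting alone of 6.55 to 1610. With no filter on low counts, the edgeR fit over 18049 genes gave Ednrb a log2 difference of 4.70 at day 7 (adjusted p = 0.0185), 3.69 at day 21 (0.137) and 3.40 at day 28 (0.317). For some members this fit gave far smaller adjusted p than the main fit at nearly the same difference. For Rgs5 at day 28 against day 21 it gave 2.68e-13 (log2 -2.69), against 0.0690 (-2.68). Its call of Ednrb thus carries less weight than a call of the main fit. The mean log2 ratio of Ednrb to Ednra went from -1.92 ± 0.65 (SD, n = 4) at day 0 to 0.07 ± 0.55 at day 7, a difference of 1.99 with a prior count of 2 and with no overlap of the libraries (two-sided exact permutation test, p = 0.0286, the smallest it allows, adjusted p = 0.0858). With 1 Ednrb count over the day 0 libraries, the size of this difference rests on the prior count and is no bound. Summed endothelial markers (10 genes, none at 0 on any day) were 787.6 to 1333 CPM at day 0 and 845.8 to 2584 at day 7, where 4 were called higher and 1 lower. The part of these cells in the Ednrb counts was not tested.

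Agtr1a (chr13:30518942-30566850, plus strand), the angiotensin II type 1a receptor, held at most 2 counts in any library. The 4 day 0 libraries together held 2 counts, those of day 7 held 3, those of day 14 and day 21 held 2 each, and those of day 28 none. No statement on its direction was possible at this depth (day 7 to day 0 ratio of rates 1.97, counting interval 0.226 to 23.6). Its close paralog Agtr1b shares much of the coding sequence, and reads of both could be split by the counting. Agtr1b itself held only 8 counts over the 18 libraries, with at most 7 in any library.

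Rgs4 and Rgs5 encode GTPase-activating proteins for Gq and Gi, which shorten signals of endothelin, angiotensin and other constrictors. They are neighbours on chromosome 1, with Rgs5 at chr1:169483036-169524887 on the plus strand and Rgs4 at chr1:169569046-169575218 on the minus strand, so that their 3′ ends face each other over 44158 bases with no protein-coding gene between them. Their promoters are shown because these neighbours were called in opposite directions, Rgs4 lower at day 7 and Rgs5 higher at days 14 and 21. As above, each line gives the 250 bases before the RefSeq start, found at chr1:169575212-169575461 (Rgs4, minus strand) and chr1:169482820-169483069 (Rgs5, plus strand) of GRCm39, with capitals for a TATA box (TATAAA) or a CCAAT box, read on either strand.
Rgs4: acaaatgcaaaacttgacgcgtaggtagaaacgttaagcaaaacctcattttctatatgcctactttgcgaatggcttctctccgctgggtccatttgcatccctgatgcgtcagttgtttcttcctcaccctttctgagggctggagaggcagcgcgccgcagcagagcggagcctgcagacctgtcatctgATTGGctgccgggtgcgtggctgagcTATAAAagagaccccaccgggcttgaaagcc
Rgs5: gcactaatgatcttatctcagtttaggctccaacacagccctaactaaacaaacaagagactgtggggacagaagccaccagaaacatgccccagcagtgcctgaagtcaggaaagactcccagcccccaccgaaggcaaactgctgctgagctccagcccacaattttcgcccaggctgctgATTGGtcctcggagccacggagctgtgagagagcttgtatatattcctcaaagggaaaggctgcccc
Rgs4 held 1 TATA box, which 12.4% of the 32851 promoters held, and 1 CCAAT box, and Rgs5 held 1 CCAAT box. Of the 10 members, 8 had an entry (10 promoters in all). None of these windows matched the CArG box, the site of serum response factor on many smooth muscle genes, or the AP-1 site (TGANTCA), which were in 1.47% and 6.75% of all promoters. No match says only that these letters are not in the windows. The last bases of the printed Rgs4 and Rgs5 windows lie within the gene spans given above.

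Rgs4 stood at 53.6, 123, 50.7 and 142 CPM at day 0 and at 7.12, 7.19, 1.99 and 12.9 CPM at day 7, which were 1 to 8 counts. No library of day 7 came near the lowest of day 0, and Rgs4 fell 12.1-fold (log2 -3.60, SE 0.60, 95% interval -4.83 to -2.36, edgeR adjusted p = 1e-04). At day 14 it was at 65.6, 19.4 and 18.3 CPM, at day 21 at 14.2, 44.4, 62.5 and 30.3 CPM and at day 28 at 51.7, 26.5 and 63.9 CPM. These days overlapped with day 0, with log2 differences of -1.43 (adjusted p = 0.154), -1.30 (0.117) and -0.96 (0.423). Without day 14 replicate 1, which had the highest smooth muscle marker sum of its day, day 14 was called lower (log2 -2.28, adjusted p = 0.0316), and with the mouse number as a block in limma day 21 was (log2 -1.49, 0.0392). From day 7, Rgs4 rose to day 21 (log2 2.30, SE 0.61, edgeR adjusted p = 0.0192) and to day 28 (log2 2.63, SE 0.63, adjusted p = 0.00582). The day 21 call was lost without day 7 replicate 1 (0.0529), 2 (0.0519) or 3 (0.0658) or day 21 replicate 3 (0.0807), and both calls were lost with the mouse number as a block (0.194 and 0.0514). Without day 7 replicate 4, day 14 was called above day 7 (log2 2.59, adjusted p = 0.0491), against 2.17 (0.0920) with it.

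Rgs5 was called in the other direction, and later. It stood at 50.6, 46.6, 38.8 and 27.6 CPM at day 0, and at 90.8, 89.9, 9.97 and 139 CPM at day 7, where replicate 3 was the lowest of all 18 libraries. The day 7 libraries overlapped with day 0 (log2 1.02, SE 0.65, edgeR adjusted p = 0.320). With no filter on low counts the adjusted p was 0.007 at nearly the same difference (log2 1.03), with the limit given above for that fit. At day 14 Rgs5 reached 609, 215 and 1790 CPM and at day 21 150, 1181, 314 and 914 CPM, all above every library of day 0 and of day 7. Such a group wholly above day 0 was found for 10.7% of the genes tested at day 14 and 9.31% at day 21. Rgs5 was called higher than at day 0 on both days, by 4.41 on the log2 scale (SE 0.70, adjusted p = 0.000241) and by 3.96 (SE 0.67, adjusted p = 0.000502). Its spread within these days was wide, and a single library, day 14 replicate 3, held 1372 of the 1875 Rgs5 counts of day 14. Without that library the log2 difference at day 14 was 3.31 (adjusted p = 0.00416), and both calls against day 0 held without any 1 library.

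At day 28 Rgs5 was at 146, 114 and 36.8 CPM, which overlapped with day 0 (log2 1.28, SE 0.68, edgeR adjusted p = 0.394). It lay wholly below days 14 and 21. Rgs5 was called lower at day 28 than at day 14 (log2 -3.13, SE 0.73, adjusted p = 0.0391), where 0.659% of all genes were called lower. This call was lost in 9 of the 18 fits that left out 1 library. It was lost without day 14 replicate 3 (log2 -2.04, adjusted p = 0.248) or day 28 replicate 2 (-3.25, 0.150) or 3 (-2.75, 0.174), and at adjusted p of 0.0506 to 0.0536 without day 0 replicate 2, 3 or 4, day 7 replicate 1 or 2 or day 21 replicate 4. The replicate block (0.0712) and the limma fit with a mouse number block (0.0814) ended it too. No day 14 or day 28 library shares a mouse number, and the limma fit also changed the test. Against day 21 the difference was -2.68 (SE 0.70, adjusted p = 0.0690), which DESeq2 called (0.0421). It was also called by the edgeR fits without day 7 replicate 3 (0.0460), day 14 replicate 2 (0.0443), day 21 replicate 1 (0.0480) or day 28 replicate 1 (0.0471). The fit with no filter on low counts called it as well (2.68e-13), with the limit given above. Against day 7, Rgs5 was higher at day 14 (log2 3.39, SE 0.67, adjusted p = 0.00913, and 2.30, 0.0967, without day 14 replicate 3) and at day 21 (log2 2.94, SE 0.64, adjusted p = 0.00462).

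The ratio of Rgs4 to Rgs5 within a library put both courses on 1 scale. The log2 ratio was 0.08, 1.34, 0.36 and 2.24 at day 0, -3.19, -3.17, -1.35 and -3.14 at day 7, -3.16, -3.28 and -6.39 at day 14, -3.15, -4.64, -2.27 and -4.78 at day 21 and -1.45, -1.99 and 0.75 at day 28. Rgs4 counts thus exceeded Rgs5 counts in each day 0 library and were below them in each library of days 7, 14 and 21. The differences from day 0 were -3.72, -5.28 and -4.71 at days 7, 14 and 21 (two-sided exact permutation tests, p = 0.0286 each, the smallest they allow), and none passed after adjustment over 12 comparisons (adjusted p = 0.0858). Even at the smallest p, the comparisons of 1 gene pair alone could not have passed this adjustment. At day 28 the difference was -1.90 (exact p = 0.143). Over the 18 libraries the correlation of log2 CPM between both genes was 0.04, against 0.80 between Gucy1a1 and Gucy1b1, as a description of libraries that share their days.

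From day 7, 5 members each were called higher by day 21 (Gucy1b1, Pde5a, Pde3a, Rgs4 and Rgs5), where 4.03% of all genes were, and by day 28 (Gucy1a1, Gucy1b1, Pde5a, Pde3a and Rgs4), where 6.40% were. Only Rgs5 was called between day 7 and day 14, where 1.33% of all genes were called higher. Between days 28 and 21 no member was called, 1 (Rgs5) had an unadjusted p under 0.05, and 0.679% of all genes were called. Between days 14 and 21 edgeR called none of the 8 members and 0 of the 10312 genes (0% of all, 421 genes and 1 member, Pde5a, had an unadjusted p under 0.05), and DESeq2 called no member either. Ordered by mean level, no pair of neighbouring days differed for any member at an adjusted p under 0.05. Day 0 was the highest day for Gucy1a1, Gucy1b1, Pde3a and Rgs4, day 28 for Pde5a, day 21 for Prkg1 and day 14 for Ednra and Rgs5, and day 7 was the lowest for Gucy1a1, Gucy1b1, Prkg1, Pde5a, Pde3a and Rgs4.

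Because smooth muscle markers fell with most members, the members were also fitted per smooth muscle marker count, with the summed counts of the 18 markers as the size of each library. On this scale the median of all genes moved up by 3.58 on the log2 scale at day 7, 1.76 at day 14, 1.49 at day 21 and 0.53 at day 28, and 93.3%, 58.3% and 45.4% of all genes were called higher at days 7, 14 and 21. At day 7, 5 members were called higher on this scale, at day 14, 3 (Gucy1a1, Ednra and Rgs5) and at day 21, 1 (Rgs5). Rgs4, Gucy1b1 and Prkg1 did not depart from the markers beyond error at day 7. Rgs4 was at 17.8 counts per 10000 marker counts at day 0 and 13.9 at day 7 (log2 -0.39, 95% interval -1.84 to 1.07), and Gucy1b1 at 26.6 and 19.8 (log2 -0.43, 95% interval -1.75 to 0.88). These intervals reach from about 3-fold lower to about 2-fold higher, so they do not show that the genes moved alike with the markers. That of Prkg1 was wider still (log2 1.19, 95% interval -0.93 to 3.31).

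Pde5a (log2 1.62, SE 0.56, edgeR adjusted p = 0.00779), Pde3a (1.42, SE 0.46, 0.00474) and Gucy1a1 (1.08, SE 0.46, 0.0271) were called higher per marker count at day 7, though each rose less than the median gene did. The call of Gucy1a1 was lost without day 7 replicate 4 (log2 0.73, adjusted p = 0.132) or day 0 replicate 2 (0.0645) or 4 (0.0678). Their sign on this scale was the opposite of that per library total, as the whole distribution moved up by 3.58, and they lay at percentiles 3.75 (Gucy1a1), 5.23 (Pde3a) and 6.14 (Pde5a) of the log2 fold changes of all genes tested. Ednra (log2 3.55, SE 0.98, adjusted p = 0.00119) moved by nearly the median of all genes. Rgs5 was at 7.78 counts per 10000 marker counts at day 0, 158.9 at day 7, 587 at day 14, 374 at day 21 and 26.8 at day 28. It was called higher at days 7, 14 and 21 (log2 4.33, 6.23 and 5.57, adjusted p = 3.87e-06, 1.55e-06 and 5.71e-06), above the median of all genes each time. At day 14 the 3 libraries were at 177.3, 184.3 and 1400 Rgs5 counts per 10000 marker counts, and without replicate 3 the log2 difference was 4.53 (adjusted p = 6.8e-05). At day 28 no member was called on this scale, where Rgs5 (log2 1.78, adjusted p = 0.238) had the only unadjusted p under 0.05 and 1.01% of all genes were called. At day 14 the call of Gucy1a1 (log2 1.17, adjusted p = 0.0373) was lost without any 1 of the 4 day 0 libraries or without replicate 2 or 3 (adjusted p = 0.0504 to 0.209), and that of Ednra (log2 2.73, adjusted p = 0.0197) without day 0 replicate 3 (0.0522) or day 14 replicate 2 (0.133) or 3 (0.0654). Summed pericyte markers (9 genes, without Rgs5) were 1617 to 1946 CPM at day 0, 951.2 to 1486 at day 14 and 1118 to 1526 at day 21, where none and 1 (Notch3) of the 7 tested were called higher. Of the 9, Higd1b had no count on days 0, 7, 14 and 28 and Vtn none on days 7, 14 and 28, while on day 21 none was at 0. Their part in the Rgs5 values was not tested.

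**Figure D4:**
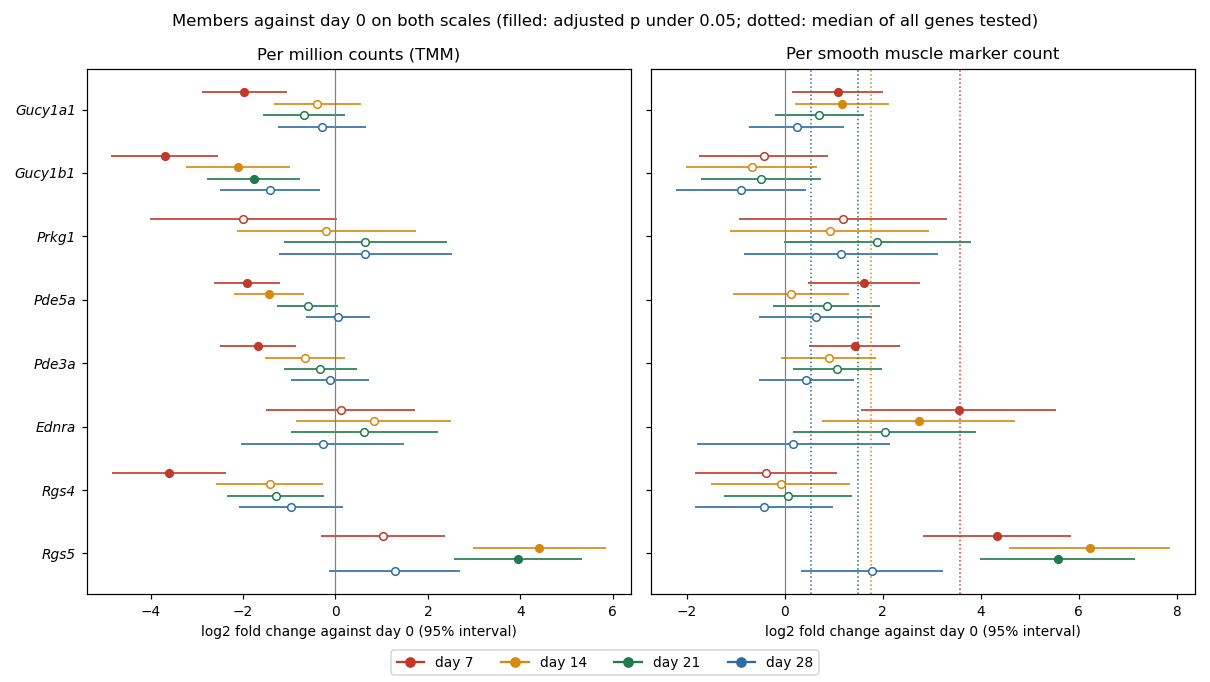
Log2 fold change of the 8 tested members against day 0 with 95% intervals, per library total after TMM scaling (left) and per smooth muscle marker count (right). Colours are days, filled points have an adjusted p under 0.05, and dotted lines on the right mark the median of all genes tested. Rgs5 was above 0 at days 14 and 21 on both scales. At day 7, Gucy1a1, Pde5a and Pde3a lay below 0 on the left, and above 0 but below the dotted line of day 7 on the right.

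For each tested member, up to 3 of the genes with the most similar course over the 18 libraries (Pearson r of log2 CPM) are given as a description, since all libraries share days and composition. Gucy1a1 was most like Cspg4, Aoc3 and Lamb2 (r = 0.941, 0.936 and 0.933), and Gucy1b1 most like Ppp1r14a, Clic4 and Itgb1 (0.945, 0.936 and 0.933). Pde5a was nearest to Fam13c, Samd4 and Hipk3 (0.940, 0.905 and 0.880), Pde3a to Itga8 and Pls3 (0.958 and 0.943) and Rgs4 to Oat, Hipk3 and Ecm2 (0.933, 0.918 and 0.915). Rgs5 was nearest to Sfrp4, Tnfrsf11b and Mxra8 (0.899, 0.845 and 0.836). The low genes had weaker matches, with Phactr1, Kif3a and Aldh6a1 for Prkg1 (0.882, 0.828 and 0.824) and Elk1, Kbtbd7 and Zfp282 for Ednra (0.876, 0.832 and 0.825).

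Other genes of cyclic GMP signalling were taken from a list of 21, of which 11 were tested. At day 7, 3 were called lower and 1 higher, where 8.53% of all genes were lower and 11.3% higher, and the median of the 11 was 0.90 on the log2 scale (all genes, 0.07). The 3 were Npr1, the receptor for atrial natriuretic peptide, which fell from 316 ± 39.4 to 58.5 ± 26.9 CPM (SD, n = 4 each, log2 -2.43, edgeR adjusted p = 6.61e-06), Irag1, a protein kinase G substrate at the calcium store (324.8 ± 30.1 to 54.8 ± 47.3 CPM, log2 -2.54, adjusted p = 0.000114), and Ppp1r12a, the targeting subunit of myosin phosphatase (552 ± 38.2 to 117 ± 25.5 CPM, log2 -2.23, adjusted p = 1.26e-06). Npr3, the clearance receptor of natriuretic peptides, was the 1 called higher, from 1 count over the day 0 libraries to 42 over those of day 7 (ratio of rates 55.2, counting interval 9.37 to 2230). The genes above the median of the list at day 7 were Npr3, Prkg2, Pde2a, Pde3b and Pde1a. They held at most 12 counts in any day 0 library, so the positive median rests on low genes and does not show that the list rose. At day 14 and day 21, 2 were lower (Npr1 and Ppp1r12a) and 1 higher, beside 1.42% and 2.93% of all genes lower and 4.80% and 5.92% higher. At day 28 Npr3 alone was called (44 counts, 40 of them in 1 library, adjusted p = 0.0394), beside 1.34% of all genes. This call was lost without day 28 replicate 3 (0.447), any 1 day 0 library (0.0650 to 0.102) or day 14 replicate 3 (0.0505). The replicate block (0.119), the limma fit with a mouse number block (0.142) and the deposited normalised values (0.109) lost it too. At day 14 the call of Npr1 was lost without replicate 2 (adjusted p = 0.164) and that of Ppp1r12a without replicate 2 (0.120) or 3 (0.0993), and at day 21 that of Ppp1r12a without replicate 1 (0.0663). The Npr3 calls of days 14 and 21 were lost without day 0 replicate 1, 2 or 3, with adjusted p from 0.0680 to 0.102, and in further such fits.

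Of 30 other vasoconstrictor ligands, enzymes and receptors, 14 were tested, and at day 7, 4 were called lower and 2 higher, beside 8.53% and 11.3% of all genes (median log2 -0.35). The receptors Npy1r for neuropeptide Y (208 ± 89.7 to 26.0 ± 12.1 CPM, log2 -2.99, edgeR adjusted p = 0.000132), Htr1b for serotonin (76.2 ± 17.0 to 17.9 ± 15.3 CPM, log2 -2.11, adjusted p = 0.00591), Tbxa2r for thromboxane (log2 -2.78, adjusted p = 0.00835) and P2rx1 for ATP (log2 -3.40, adjusted p = 0.00848) fell. Ece1, which makes endothelin-1 from its precursor, rose from 190 ± 55.2 to 515 ± 100 CPM (log2 1.44, adjusted p = 0.000477), and P2ry6, a receptor for UDP, rose from 28.9 ± 11.1 to 90.3 ± 39.1 CPM (log2 1.63, adjusted p = 0.00492). No gene of this list was called at day 14, 21 or 28 against day 0 by edgeR, where 4, 4 and 2 had an unadjusted p under 0.05. DESeq2 called 1 at day 14, Npy1r (log2 -1.67, adjusted p = 0.0223), and none at days 21 and 28.

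Of 12 other RGS genes, 7 were tested, and 3 rose at day 7 and none was called lower, beside 11.3% and 8.53% of all genes (median log2 1.60). Rgs2, which acts on Gq, rose from 20.1 ± 12.5 to 84.96 ± 22.1 CPM (log2 2.08, edgeR adjusted p = 0.0143, and 0.0516 without day 0 replicate 2 or 0.0532 without day 7 replicate 2). Rgs19 rose from 12.9 ± 9.75 to 56.7 ± 9.82 CPM (log2 2.10, adjusted p = 0.00782). Rgs16 had no count at day 0 and 26 at day 7 (edgeR adjusted p = 0.0126), and it had no count again at day 28. The rise at day 7 was 11.4-fold against a floor of 3 counts over the group. The counting interval reached down to 8.62-fold, so 11.4 is no lower bound. No gene of this list was called against day 0 by edgeR at days 14, 21 or 28, where 4, 4 and 0 had an unadjusted p under 0.05, while DESeq2 called Rgs16 at days 14 (0.0178) and 21 (0.0221) and Rgs19 at day 14 (0.0275), and 1 more gene of the list at day 21. Summed macrophage markers rose in the same libraries (5231 ± 947 CPM at day 7 against 267 ± 187 at day 0), and their part in the RGS and P2ry6 values was not tested.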

How the data were processed

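The 18 3′-end (nanoMACE-seq) libraries of laser-dissected mouse carotid artery took their group from the labelled day. Per the study's methods, the authors collapsed duplicates with UMIs, cropped poor reads and ran Salmon 1.9.0 against the mm39 transcriptome. The authors deposited estimated counts (expected counts) as whole numbers per gene, which every main test used. The deposited normalised values, a signal made with DESeq2 1.36.0, carry for some genes a factor beyond the library factor (0.925 to 2.83 for Prkg1) and were used in an alternative only. Annotation release and strand use are not given in the sources used here.

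Counts were fitted with edgeR 4.0.16 in R 4.3.3 (filterByExpr by day with a minimum count of 10, TMM, quasi-likelihood test, 1 fit of 18 libraries, 10 contrasts, Benjamini-Hochberg adjustment over 10312 genes, threshold 0.05). CPM used library totals over the genes tested, scaled by TMM factors, and log2 CPM and ratios added a prior count of 2. The second scale took summed counts of 18 smooth muscle markers as library size. Shares of all genes whose groups did not overlap were taken against day 0 only, so non-overlap between later days has no such share beside it. Ratios of 3 gene pairs were compared by two-sided exact permutation tests, whose smallest p could not pass the adjustment for 1 pair alone. The marker lists not named above had these summed levels at day 0 and day 7: fibroblast (8 genes) 2513 to 3822 and 651.9 to 1887 CPM, neutrophil (6) 26.8 to 99.86 and 227.6 to 794.2, Schwann and neuron (6) 406.9 to 561.7 and 86.25 to 106.8, erythroid (5) 40.2 to 369.4 and 163.8 to 2347, and adipocyte (5) 195.3 to 273.8 and 41.86 to 180.8.

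Members and lists were chosen with earlier results of these data known. All members were named. From each of 3 other lists up to 5 genes called against day 0 were named by the smallest adjusted p, and for each member the 3 genes of highest correlation; a further list and 1 such gene are not reported here. P2rx1 was named in addition after its value was seen. The fits were tested on simulated data. Replicates differed by more than sampling noise. Residuals of libraries with the same replicate number had a median correlation of -0.0057 (33 pairs), so these numbers do not pair libraries, and those of the 3 day 0 and day 21 pairs with 1 mouse number were -0.0067 to 0.055. Alternatives were RLE, library totals, DESeq2 1.42.0, limma 3.58.1 on the deposited signal, other filters, thinning, fits of 2 days, blocks and leaving out each library. Counting intervals are exact and cover counting error only. Positions are from GENCODE for GRCm39.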

Additional observations from a re-analysis of the deposited data

Results flagged for a closer look

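Gucy1a1 in day 7 replicate 4 was at 171 CPM, while the other 3 libraries of day 7 were at 26.95 to 37.4 CPM. The gap to the nearest library was 0.928 of the whole range of the day, above the 95% critical value of Dixon's test, which chance passes in about 1 in 20 groups. Each of the 10 members was examined on every day with 4 libraries, so a flag by chance alone is expected among so many groups. The same library had the highest smooth muscle marker sum of day 7 (10250 CPM against 2897 to 5611 CPM). Without it, the fall of Gucy1a1 at day 7 was -3.03 on the log2 scale, against -1.97 with it. Ednrb in day 0 replicate 2 was at 1.195 CPM, a single count, and the other 3 libraries of day 0 were at 0. With those libraries at 0, any count in replicate 2 would have been flagged, so this flag carries no weight. No further gap among the 10 members passed that value on days with 4 libraries, and days with 3 libraries were not examined for this.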

How the results depend on the processing

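Over 2226 refits of member fold changes, 36 had another sign than the main value, with a call in neither fit, and none had another sign with a call. Of 22 calls of members, 9 held in every refit, among them the 5 at day 7 and Rgs5 at days 14 and 21 against day 0. At day 7 against day 0, 5 members were called in most refits, 6 without any 1 library of day 14 or 28 (9 members tested) and 7 with no filter (10 tested, with Rgs5 and Ednrb called as well). Counts of called members moved as follows. With no filter on low counts, 1 was called at day 28 against day 0 (0 in the main fit), 3 at day 14 against day 7 (1), 2 at day 28 against day 14 (1) and 1 at day 28 against day 21 (0). DESeq2 gave 2, 2 and 1 in the last 3 of these, library totals gave 2 at day 28 against day 14, and the deposited normalised values gave 2 at day 14 against day 7 and 0 at day 28 against day 14. Fits of only 2 days gave 0 of 5 members tested at day 14 against day 7, 2 of 4 at day 21 against day 7 (5 of 8 in the main fit), 3 of 7 at day 28 against day 7 (5) and 0 of 8 at day 28 against day 14, and Gucy1b1 and Rgs4 were not among the 4 tested. The replicate block gave 2 at day 14 against day 7 and 0 at day 28 against day 14, and 3 per smooth muscle marker count at day 21 (1). The mouse number block, fitted in limma rather than edgeR, gave 2, 3 and 0 at day 14 and day 28 against day 7 and at day 28 against day 14. The replicate block also called Gucy1a1 higher at day 14 (adjusted p = 0.0124) and day 21 (0.0196) than at day 7, and it changed no other count by more than 1.5 times. Per marker count at day 21, the median of ratios over the markers and the markers without Acta2 and Tagln gave 3 each. Leaving out 1 library gave 1 to 4 at day 14 and 1 to 2 at day 21 against day 0, 0 to 4 at day 14 and 1 to 5 at day 21 against day 7, 0 to 2 at day 28 against day 14, 0 to 1 at day 28 against day 21, and per marker count 1 to 3 at days 14 and 21 each. The cause of these shifts was not tested. Low counts of Prkg1, Ednra, Ednrb and Agtr1a limit what could be seen of them.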
